A study of Pyrus communis with 12 samples.

Results

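Ethylene is made from S-adenosylmethionine in 2 enzymatic steps. ACC synthase (ACS) forms the intermediate ACC, and ACC oxidase (ACO) converts ACC to ethylene. In climacteric fruit such as pear both enzymes are encoded by small gene families, whose copies can be active at different times of fruit development, and ethylene itself induces some of these copies during ripening. The 5 genes described here are the copies that the study or its supplement annotated as ACS (PCP011500 and PCP013122) or as ACO (PCP011683, PCP009685 and PCP022491), out of 45217 genes in the count table. They were taken by annotation and not by their values, but the study drew its annotated genes from those it had called as differentially expressed in these same libraries, so that a difference between stages in the 5 genes is not independent evidence. PCP011500 and PCP011683 are the copies for which it designed RT-qPCR assays.

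The measurements are RNA-seq read counts from flesh of the European pear cultivar 'Abate Fetel' at 4 harvesting stages with 3 biological replicates each. H1 was picked 120 days after full bloom (harvest week 1 of the labels), H2 7 days later (week 2), H3 a further 13 days later (week 3) and H4 7 days after H3 (week 4). All 12 libraries came from fruit taken right after harvest, with no cold storage and no treatment with the ethylene blocker 1-methylcyclopropene, and from fruit that had been selected at each stage for a common chlorophyll absorbance. How many fruits went into 1 library is not given in the sources used here, and neither the tissue nor its cell types could be checked against marker genes, because the table names genes only by identifier.

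The libraries held 7776419 to 10675582 counts, so that 3 counts, taken as the floor of detection, stood for 0.281 to 0.386 CPM depending on the library, CPM being the count of a gene per 1000000 counts of its library. Differences between stages were tested with the quasi-likelihood test of edgeR on the 23155 genes that had at least 1 CPM in at least 3 libraries, and a gene was called when its Benjamini-Hochberg adjusted p was under 0.05. This filter was passed by 4 of the 5 genes, while PCP011500 did not pass it. For that copy the p-values of a fit without the filter are given. PCP013122 passed the filter only through H4 and 1 library of H3, and PCP009685 and PCP022491 only through libraries of H2 to H4. A higher level than at H1 was thus to some extent built into the passing of these 3 copies, as was a higher level at H4 than at H3 for PCP013122, and their calls and the counts that hold them are to be read with this limit. PCP011683 was above 1 CPM in every library. Intervals given with ratios and shares are 95% intervals that cover counting error only. The table gives no gene length, so levels are compared between stages for each copy, and not between copies.

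Of the ACS copies, PCP013122 had no count in any H1 library, and its counts were 0, 3 and 0 at H2, 7, 7 and 10 at H3 and 42, 42 and 57 at H4. The H3 libraries all lay above those of H1 and H2, and the H4 libraries all lay above those of H3. Its mean level was 0.129 ± 0.223 CPM (SD, n = 3) at H2, 0.929 ± 0.231 CPM at H3 and 4.70 ± 0.967 CPM at H4. In flesh as a whole, more RNA per cell and more cells of a type that expresses the gene cannot be told apart. The rise from H3 to H4 had a log2 fold change of 2.42 (SE 0.51, adjusted p = 0.00727 with edgeR), and the pooled counts gave a ratio of 5.08 (3.28 to 8.19). H3 was at least 2.55-fold higher than the floor at H1 (adjusted p = 0.00813), and H4 at least 12.9-fold higher (adjusted p = 7.17e-05). Between H2 and H3, where the earlier stage held 3 counts in 1 library, the ratio was 7.50 (2.28 to 38.9) and the adjusted p with edgeR was 0.0799. That call turned on H2 replicate 2, the library with these 3 counts, since without it the adjusted p for PCP013122 was 0.014.

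The other ACS copy, PCP011500, did not accumulate in steps. It had no count at H1, 3, 0 and 5 counts at H2, again no count in any H3 library, and 5, 22 and 22 counts at H4. Its mean level at H4 was 1.61 ± 0.942 CPM (SD, n = 3), and the lowest H4 library, at 0.521 CPM, was within the range of H2, whose highest library was at 0.594 CPM. H4 was therefore separate from H1 and H3, but not from H2. In the edgeR fit without the filter H4 was at least 4.62-fold higher than the floor at H3 (adjusted p = 0.0128) and at least 4.40-fold higher than that at H1 (adjusted p = 0.00752). Without H4 replicate 3 the adjusted p of PCP011500 between H3 and H4 was 0.052. The ratio of the pooled counts of H4 to those of H2 was 4.96 (2.33 to 12.1), with an adjusted p of 0.12 with edgeR and of 0.038 with limma-voom. The counts of H2 were too few to set that stage apart from H1 (adjusted p = 0.223) or from H3 (adjusted p = 0.26).

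Among the ACO copies, PCP011683 held most of the reads at every stage, with no correction for gene length. Its counts were 98, 123 and 83 at H1, 93, 89 and 67 at H2, 75, 105 and 116 at H3 and 770, 1456 and 1293 at H4. The libraries of the first 3 stages overlapped, between 7.96 and 13.8 CPM, and the lowest H4 library stood at 80.3 CPM, above all of them. The stage means were 12.2 ± 1.45, 10.2 ± 1.98, 11.4 ± 2.31 and 116.0 ± 31.0 CPM (SD, n = 3). PCP011683 rose 10.2-fold in mean CPM from H3 to H4, with a log2 fold change of 3.45 (SE 0.22, adjusted p = 6.76e-07 with edgeR). Before that rise no step passed the test. The log2 fold change was -0.26 (SE 0.26, adjusted p = 0.651) from H1 to H2 and 0.15 (SE 0.26, adjusted p = 0.853) from H2 to H3, and the pooled counts of H3 stood at 0.929 times those of H1 (0.789 to 1.09).

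PCP009685 followed another course, with a level that was higher at each later stage. Its counts were 4, 4 and 0 at H1, 11, 9 and 15 at H2, 16, 21 and 24 at H3 and 25, 44 and 45 at H4. In CPM, all H2 libraries were above all H1 libraries and all H3 libraries above all H2 libraries, while H4, from 2.61 to 4.57 CPM, overlapped with H3, from 1.96 to 2.85 CPM. The stage means were 0.316 ± 0.277, 1.43 ± 0.321, 2.35 ± 0.458 and 3.77 ± 1.03 CPM (SD, n = 3). Over longer spans PCP009685 rose, with a log2 fold change of 2.81 (SE 0.54, adjusted p = 0.00442 with edgeR) from H1 to H3 and of 3.58 (SE 0.52, adjusted p = 0.000176) from H1 to H4. Of the single steps the first was called, with a log2 fold change of 2.10 (SE 0.57, adjusted p = 0.0444) and a ratio of pooled counts of 4.45 (2.03 to 11.1). This call was lost with the filter removed (adjusted p = 0.0502), with limma-voom (0.133) and in 11 of the 12 fits that left out 1 library, and its adjusted p over all alternatives for PCP009685 ranged from 0.0269 to 0.182. The steps from H2 to H3 (log2 fold change 0.71, SE 0.44, adjusted p = 0.483) and from H3 to H4 (0.78, SE 0.40, adjusted p = 0.205) did not pass. The span from H2 to H4 did (log2 fold change 1.48, SE 0.42, adjusted p = 0.0196), but not when H2 replicate 1 (0.06), H2 replicate 2 (0.07), H4 replicate 2 (0.056) or H4 replicate 3 (0.072) of PCP009685 was left out.

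The least counted ACO copy, PCP022491, had 0, 2 and 0 counts at H1, 6, 0 and 10 at H2, 9, 14 and 8 at H3 and 7, 13 and 12 at H4. Its libraries of H3 and H4 overlapped almost entirely, at means of 1.18 ± 0.277 and 1.06 ± 0.282 CPM (SD, n = 3), and both stages were separate from H1. H2, at 0.640 ± 0.599 CPM, spanned the range from no count to the level of H3. From H1 to H3 the ratio of the pooled counts was 14.8 (3.76 to 127.6), with an adjusted p of 0.0412 with edgeR, and from H1 to H4 it was 13.2 (3.37 to 113.6), with an adjusted p of 0.0187. Both rest on 2 counts at H1. The first was lost in 10 of 19 alternative fits of PCP022491, with an adjusted p of up to 0.117, and the second when H1 replicate 1 (0.061) or H1 replicate 3 (0.06) was left out. From H3 to H4 the log2 fold change was -0.07 (SE 0.71, adjusted p = 0.965), and the ratio of the pooled counts, 0.892 (0.527 to 1.51), spans both a lower and a higher level.

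**Figure D1:**
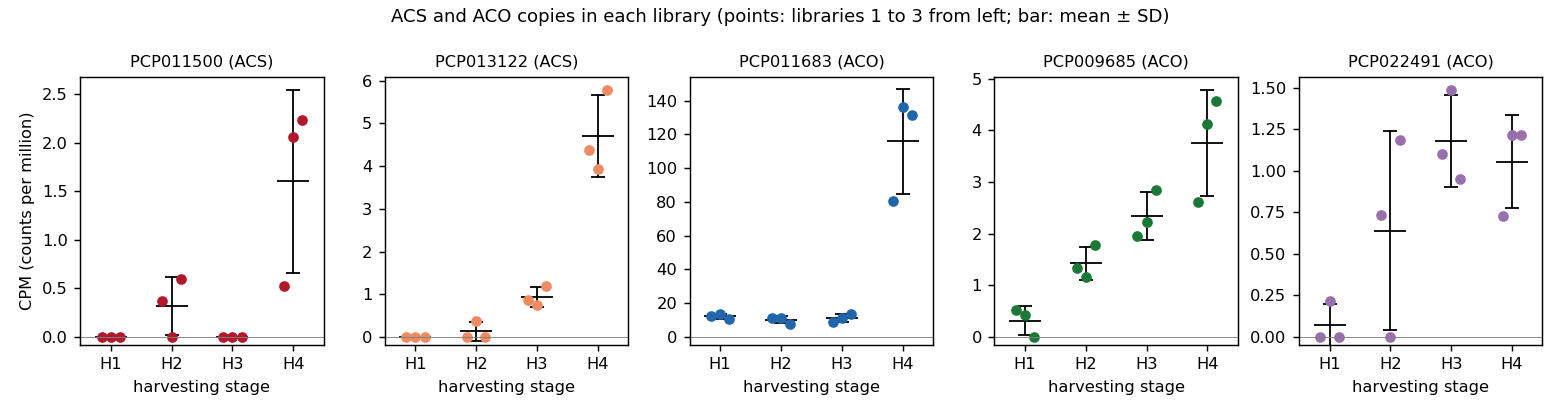
Level of each ACS and ACO copy in the 12 libraries (y axis, CPM on a linear scale of its own in each panel; x axis, harvesting stage; points, libraries 1 to 3 from the left; bars, mean and SD of n = 3). PCP011683 stays between 7.96 and 13.8 CPM until H3 and reaches 80.3 CPM or more at H4, PCP013122 is first counted in every library at H3, PCP009685 has a higher mean at each stage, and the H3 and H4 libraries of PCP022491 overlap.

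Counted over the 4 tested copies, 1 was called higher from H1 to H2, which was PCP009685, against 3.94% of all genes tested. PCP009685 had entered the test only through libraries after H1. From H2 to H3 edgeR called 0 of the 4, against 2.98% of all genes, with 1 at an unadjusted p under 0.05 (PCP013122) and 0 called by DESeq2 and by limma-voom. From H3 to H4 the calls were PCP013122 and PCP011683, 2 of the 4, against 11.0% of all genes, and PCP013122 had entered the test mainly through H4. In the fit without the filter, which adds PCP011500, the background from H3 to H4 was 7.46%. No copy was called lower at any of these steps by edgeR, DESeq2 or limma-voom, or was lower at an unadjusted p under 0.05 in these 4 copies, whereas 3.17%, 2.36% and 9.51% of all genes were called lower from H1 to H2, H2 to H3 and H3 to H4. PCP011500, in the fit without the filter, was lower at H3 than at H2 at an unadjusted p of 0.0248 (adjusted p = 0.26).

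Over longer spans, 3 of the 4 tested copies were higher at H3 than at H1 (all but PCP011683; 6.79% of all genes), and 3 were higher at H4 than at H2 (all but PCP022491; 14.7%). All 4 were higher at H4 than at H1 (18.1%), and 3 were higher at H4 than in the mean of H1 to H3 (all but PCP022491; 18.5%). In this last contrast the log2 fold change of PCP011683 was 3.46 (SE 0.15, adjusted p = 5.70e-09 with edgeR) and that of PCP009685 was 1.95 (SE 0.33, adjusted p = 0.000588), while PCP022491 had 1.44 (SE 0.65, adjusted p = 0.108). PCP011500 was called in both contrasts in the fit without the filter, where the background was 12.9% for H1 to H4 and 13.3% for H4 against the earlier stages. Most of these comparisons share libraries with each other and are not separate evidence. PCP013122, PCP009685 and PCP022491 passed the filter only through libraries after H1. A higher level later than at H1 was thus in part built into these counts. The shares of all genes are not a matched background for them.

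**Figure D2:**
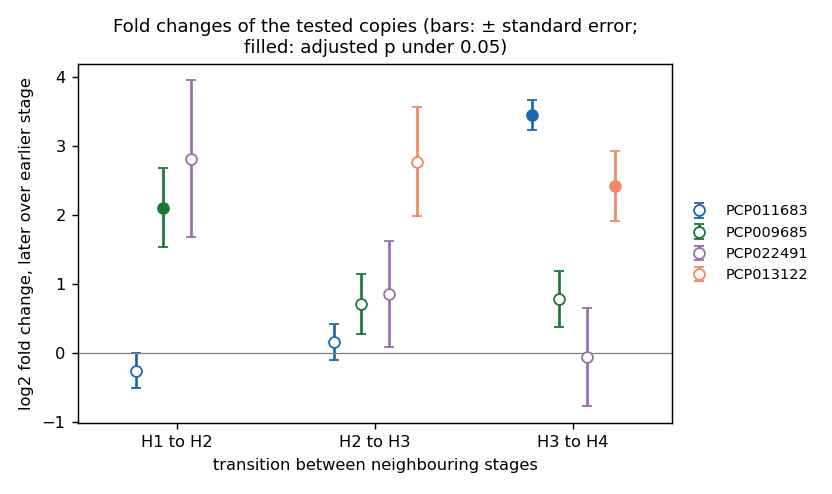
Fitted log2 fold change of the tested copies (y axis) at the 3 steps between neighbouring stages (x axis); bars are ± 1 standard error, and filled points had an adjusted p under 0.05 with edgeR. PCP009685 is the filled point at the first step, no point is filled at the second, and PCP011683 (3.45) and PCP013122 (2.42) are filled at the third. PCP013122 is not drawn at the first step, where H1 held no count, and the points of PCP022491 at the first step and of PCP013122 at the second rest on 2 and 3 counts in the earlier stage.

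The stage at which each copy was first called above H1 gives an order of calls. Such a call depends on the number of counts as well as on the time of onset. PCP009685 was called from H2 on, PCP013122 and PCP022491 from H3 on, and PCP011683 and PCP011500 at H4, PCP011500 in the fit without the filter. The early end of this order is the least certain, since the H2 call of PCP009685 was lost under most alternatives, and a copy that missed the threshold at a stage was not shown to be unchanged there. The place of PCP022491 is also uncertain, since its H3 call was lost in 10 of 19 alternative fits. So is that of PCP011500, which had 3, 0 and 5 counts at H2, where PCP013122 had 0, 3 and 0. The counts do not show that PCP011500 came on after PCP013122. PCP009685, PCP013122 and PCP022491 passed the filter only through libraries after H1, so a call above H1 was in part built in for them. PCP022491 at H2 had a ratio to H1 of 8.15 (1.92 to 73.0) with an adjusted p of 0.183. Differences between copies in their onset were tested only through the ratios of copies given next, and the test of H1 against later stages pools H2 to H4.

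The share of each copy in the reads of its family was compared between stages. A share of reads weights each copy by its length, so that the size of a change in share depends on the lengths, which are not known here. PCP011683 held 97.1 ± 2.50% (SD, n = 3) of the ACO counts at H1, 82.7 ± 9.13% at H2, 76.1 ± 1.95% at H3 and 96.0 ± 0.227% at H4. The share of PCP009685 was 2.34 ± 2.07%, 11.8 ± 3.90%, 15.7 ± 0.649% and 3.12 ± 0.213% at these stages, and that of PCP022491 was 0.517 ± 0.895%, 5.44 ± 5.43%, 8.14 ± 2.42% and 0.874 ± 0.0149%. The H3 libraries, from 75.0 to 78.4% for PCP011683, were separate from those of H1, from 95.3 to 100%, and of H4, from 95.8 to 96.2%. PCP011683 itself did not pass the test between H1 and H3 (log2 fold change -0.11, SE 0.25, adjusted p = 0.855 with edgeR), and the counts of PCP009685 and PCP022491 were higher in every H3 library than in every H1 library. On pooled counts the share of PCP011683 was 76.3% (Wilson interval, 71.8 to 80.2%) of 388 ACO counts at H3 and 96.0% (95.3 to 96.6%) of 3665 at H4.

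**Figure D3:**
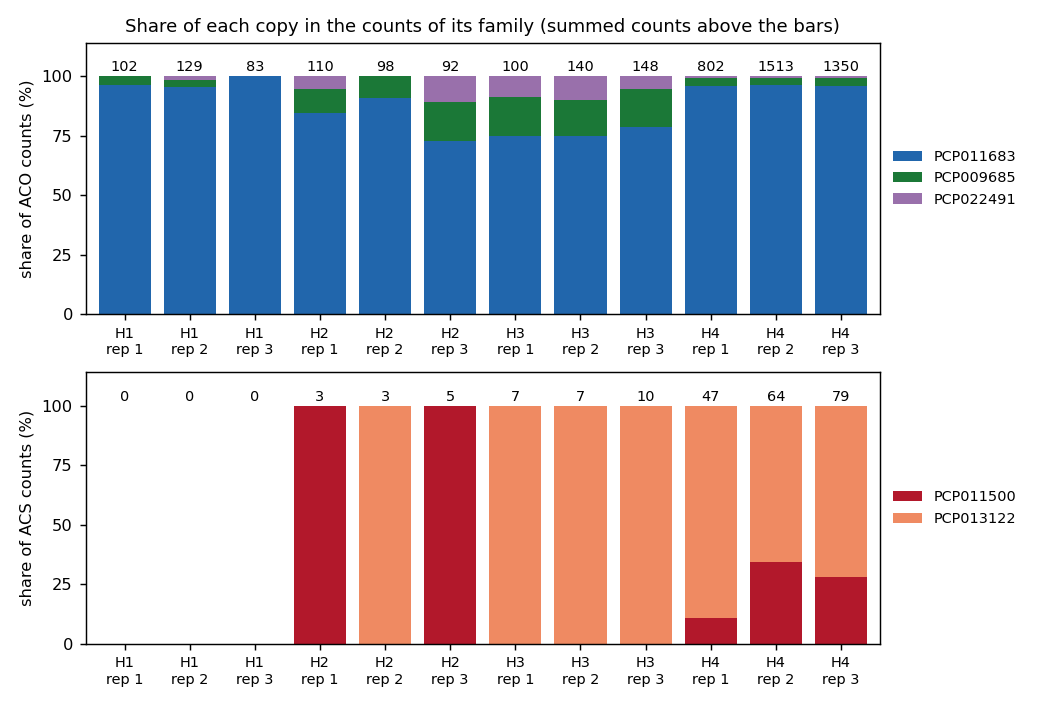
Share of each copy in the summed counts of its family in every library (y axis, percent; x axis, libraries; upper panel ACO, lower panel ACS; the numbers above the bars are the summed counts). In the ACO panel the part of PCP009685 and PCP022491 is largest in the H3 libraries and in H2 replicate 3, and PCP011683 holds at least 95.8% of the ACO counts in every H4 library. The ACS panel is empty at H1 and rests on 3 to 10 counts a library at H2 and H3.

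In the ACS family each library of H2 held reads of 1 copy alone, PCP011500 in replicates 1 and 3 and PCP013122 in replicate 2, from 3 to 5 counts. In H3 all 24 ACS counts belonged to PCP013122, which leaves a share of up to 13.8% for PCP011500 (Wilson interval). In H4 PCP013122 held 74.2% (67.6 to 79.9%) of 190 counts, with 89.4%, 65.6% and 72.2% in the 3 libraries. The summed level of the ACS copies was 0.449 ± 0.126 CPM at H2, 0.929 ± 0.231 CPM at H3 and 6.31 ± 1.58 CPM at H4, and that of the ACO copies was 12.6 ± 1.79, 12.3 ± 1.27, 14.9 ± 2.67 and 120.8 ± 32.3 CPM from H1 to H4 (SD, n = 3). The ACO sum was thus that of PCP011683 for the most part, and the course of the lesser copies is not visible in it.

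Ratios between copies were compared with two-sided exact permutation tests over libraries, on log2 of CPM plus 1 (5 tests). They treat the libraries of pooled stages as exchangeable, although these differed between stages. Their p-values thus do not measure the spread between replicates of a stage alone. The mean share of PCP011683 at H4 was 10.7 points above the mean of H1 to H3, which did not pass (exact permutation p = 0.114, adjusted p = 0.189), and the earlier stages include H1 with its high shares. The log2 ratio of PCP011683 to the other ACO copies was 3.27 at H1, 1.90 at H2, 1.44 at H3 and 4.32 at H4, and the difference of H2 to H4 combined from H1 was -0.72 and did not pass (exact permutation p = 0.418). This size rests on the pseudocount, with -1.21 (exact permutation p = 0.168) at 0.5 CPM and -1.69 (p = 0.0955) at 0.25 CPM. The test also averages H2 and H3 with H4, which moved the other way, so it cannot decide on an early difference between copies. With the pseudocount of 1 CPM, the H2 libraries (1.17 to 2.53) and H3 libraries (1.33 to 1.62) all lay below the lowest H1 library (3.12). In H4 this ratio was 2.11 above the mean of H1 to H3, and all 3 H4 libraries were above all 9 earlier ones at this pseudocount (exact permutation p = 0.00455, the smallest that 220 arrangements allow here, adjusted p = 0.0227). This last test was chosen after the stage means had been seen, and with a pseudocount of 0.25 CPM its p was 0.0909. The order of H4 and H1 turns without a pseudocount, since on pooled counts PCP011683 held 96.8% of the ACO reads at H1 and 96.0% at H4, and the H4 libraries were separate in this share from those of H2 and H3 but not of H1.

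The log2 ratio of PCP009685 to PCP022491 was 1.20 ± 0.134 at H4 against 0.28 ± 0.301, 0.63 ± 0.417 and 0.62 ± 0.321 at H1 to H3 (SD, n = 3). The difference of 0.69 passed at the pseudocount of 1 CPM (exact permutation p = 0.00909, adjusted p = 0.0227), but not at 0.5 CPM (p = 0.0591) or 0.25 CPM (p = 0.145). The low H1 value rests on the pseudocount. Without it, PCP009685 and PCP022491 held mean shares of 2.34% and 0.517% of the ACO counts at H1. At H4 they held 3.12% and 0.874%, so that H1 was not below H4 in this ratio. H2 (11.8% and 5.44%) and H3 (15.7% and 8.14%) were below H4. The H1 ratio rests on 2 counts of PCP022491. The study's supplement pairs these copies with the same database transcript, so that they may be near-identical and the counting may have exchanged reads between them. How PCP009685 and PCP022491 divide their reads is therefore uncertain. For the ACS copies the log2 ratio of PCP013122 to PCP011500 at H4 was 0.83 above that of H2 and H3, with p = 0.155 in the exact permutation test over 84 arrangements. This test averages H2, where the ratio was -0.22, with H3, where it was 0.94, against 1.19 at H4. These values rest on the pseudocount. Without it PCP013122 held all 24 ACS counts at H3 and 74.2% of 190 at H4. Against H3 alone, its share of the reads was thus lower at H4.

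Within H4 the replicates were not alike. In CPM, replicate 1 was the lowest H4 library for 4 of the 5 copies, at 0.600 times the mean of replicates 2 and 3 for PCP011683, 0.600 times for PCP009685, 0.599 times for PCP022491 and 0.243 times for PCP011500. PCP013122 was the exception, at 0.901 times. Replicate 1 was also the lowest H4 library for 57.3% of the 2540 genes called higher from H3 to H4, against 31.4% of all genes tested, but with a median ratio of 0.949. Without this library the calls from H3 to H4 were the same, with a log2 fold change of 3.65 (SE 0.15, adjusted p = 4.06e-08 with edgeR) for PCP011683 and of 2.47 (SE 0.59, adjusted p = 0.0177) for PCP013122.

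Over the 12 libraries the level of PCP011683, as log2 of CPM plus 1, had a Pearson correlation of 0.91 with PCP013122 and of 0.85 with PCP011500, but of 0.66 with PCP009685 and of 0.34 with PCP022491. PCP009685 and PCP022491 had a correlation of 0.83. These are descriptions of libraries that share their stages, and those of PCP022491 and PCP011500 rest on low counts. Among all tested genes outside the 5, the most alike to PCP011683 were PCP015327 (r = 0.99), which was at 0 CPM at H1 and H2 and at 7.81 ± 1.99 CPM at H4, and PCP028249 (r = 0.99), which went from 83.8 ± 5.70 CPM at H3 to 1066 ± 211.4 CPM at H4. The most alike to PCP013122 were PCP023604 (r = 0.99), with 20.5, 22.2, 40.6 and 103.0 CPM from H1 to H4, and PCP008323 (r = 0.99). For PCP009685 they were PCP013128 (r = 0.99), with 17.7, 24.8, 29.0 and 33.9 CPM, and PCP018666 (r = 0.99). For PCP011500 they were PCP002038 (r = 0.94) and PCP001847 (r = 0.94), and for PCP022491 PCP002435 (r = 0.96) and PCP006014 (r = 0.90). The sources used here do not annotate these genes.

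Downstream of the hormone, ethylene is bound by membrane receptors such as those of the ERS type, which repress the response until ethylene binds, and the signal ends in transcription factors of the AP2/ERF family. From the genes of these kinds that the study named, again from its own calls on these libraries, 8 were taken here. The gene that it names APETALA2 is not among them. Of the 8, 6 passed the filter. From H3 to H4, 4 of the 6 were called higher (11.0% of all genes tested) and 0 lower (9.51%), and the median log2 fold change was 1.49 for the 6 and -0.0038 for all genes tested. From H1 to H2, 1 of the 6 was called higher (3.94%), and from H2 to H3 1 was called higher (2.98%) and 1 lower (2.36%). All 6 stood higher at H4 than at H1 by the same test (18.1%). PCP027843 passed the filter only through H4, and PCP014930 only through H2 to H4, so that these counts are in part set by the filter. The 2 genes that failed it, PCP015040 and PCP016390, were counted at earlier stages and had no count in any H4 library. The filter thus also left genes that were lower at H4 out of these counts and of the median.

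The receptor gene ERS1 (PCP004450) had 90, 90 and 82 counts at H1, 132, 122 and 119 at H2, 145, 162 and 109 at H3 and 348, 604 and 530 at H4. Like PCP011683 it had all H4 libraries above all earlier ones, at 48.9 ± 11.0 CPM (SD, n = 3) against 16.0 ± 2.63 CPM at H3, with a log2 fold change of 1.71 (SE 0.17, adjusted p = 2.35e-05 with edgeR) for ERS1. The second receptor gene, ERS2 (PCP026971), had 19, 25 and 17 counts at H3 and 27, 56 and 55 at H4, with a log2 fold change of 1.05 (SE 0.36) and an adjusted p of 0.0587 that did not pass for PCP026971.

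The factor ERF2 (PCP002056) was high at 2 separate stages, with 13, 9 and 16 counts at H1, 171, 155 and 159 at H2, 15, 23 and 21 at H3 and 241, 364 and 398 at H4. ERF2 rose from H1 to H2 (log2 fold change 3.68, SE 0.24, adjusted p = 3.48e-06 with edgeR), fell by 3.13 on the log2 scale from H2 to H3 (SE 0.22, adjusted p = 1.18e-05) and rose by 3.96 from H3 to H4 (SE 0.22, adjusted p = 2.07e-07). H2, the stage of the first maximum of ERF2, was also a stage at which PCP011500 was counted, with at most 5 counts a library. PCP011500 had no count at H3, and its H2 level was not called apart from H1 or H3. PCP013122 was also first counted at H2, and a link of either copy to ERF2 was not tested. ERF1 (PCP015040), which did not pass the filter, had 14, 12 and 7 counts at H2 and no count in any H4 library.

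PCP011831, annotated as an ERF, had 5, 8 and 11 counts at H2, 20, 17 and 23 at H3 and 46, 56 and 57 at H4, and it was called higher from H3 to H4 (log2 fold change 1.27, SE 0.26, adjusted p = 0.0041 with edgeR). PCP011831 was also the gene called higher from H2 to H3 (1.23, SE 0.30, adjusted p = 0.0354), where some alternatives lost the call, with an adjusted p of up to 0.129. PCP027843, of the AP2/ERF family, had no count at H1 or H3, 0, 0 and 2 at H2 and 17, 24 and 22 at H4 (adjusted p = 0.00307 from H3 to H4 with edgeR). Since PCP027843 reached 1 CPM in the H4 libraries alone, it entered the test only through the stage where it is high. Of the last members of the list, PCP014930 had an adjusted p of 0.13 at this step, and PCP016390 did not pass the filter, with 3, 11 and 9 counts at H1 and none at H4.

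**Figure D4:**
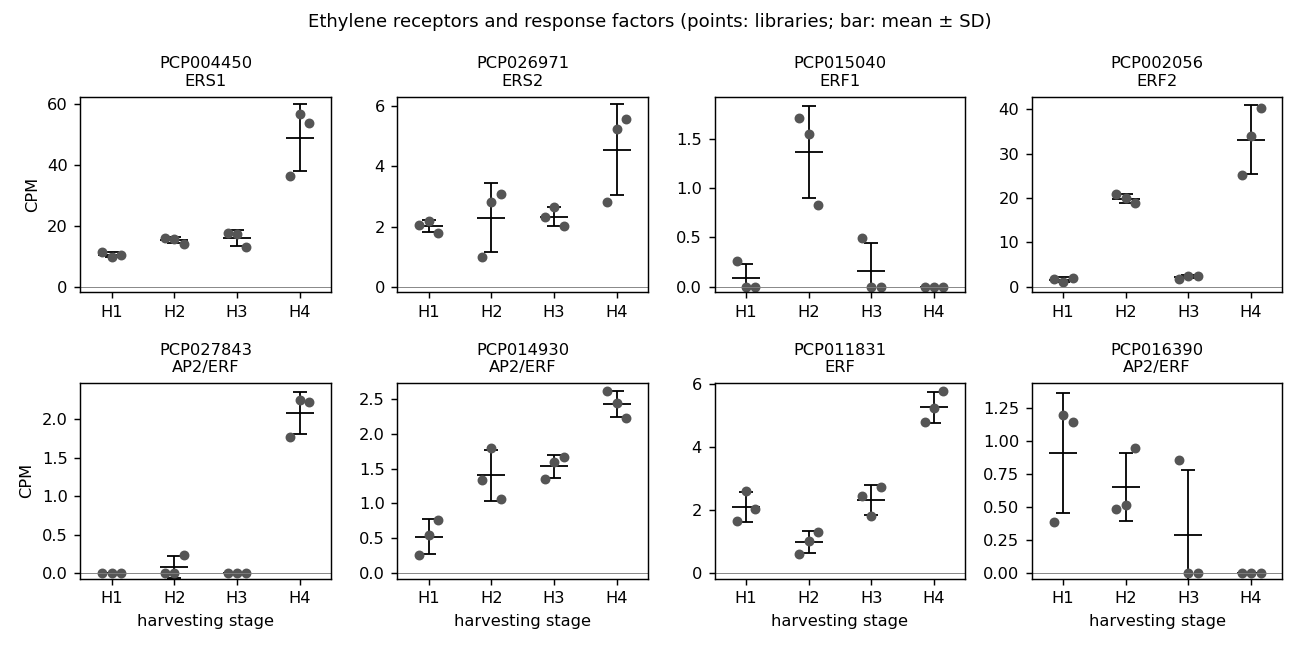
Level of the 8 ethylene receptor and AP2/ERF genes taken from the study in the 12 libraries (y axis, CPM on a linear scale of its own in each panel; x axis, harvesting stage; points, libraries; bars, mean and SD of n = 3). ERS1, ERS2, ERF2, PCP027843, PCP014930 and PCP011831 have their H4 libraries above those of H3, though this step did not pass the test for ERS2 and PCP014930. ERF2 is also high at H2, and ERF1 is counted in all libraries of H2 alone.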

How the data were processed

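The authors trimmed the single-end reads from pear flesh, mapped them with HISAT2 to the genome of Pyrus communis and used StringTie for quantification. Versions and genome build are not given in the sources used here. The labels describe non-directional libraries and name another kit, sequencer and read length than the methods of the study. The deposited values are whole-number read counts per gene in 12 library columns, with no normalization, although the table is named for FPKM, and 4 further deposited columns hold the stage means, which were not used. Strand is not kept, and near-identical genes may exchange reads.

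Counts were tested with edgeR 4.0.16 in R 4.3.3 (TMM scaling, quasi-likelihood test, all 12 libraries, 1 term per stage). Standard errors are the log2 fold change over the square root of F. CPM values use library totals, without TMM. Alternatives used DESeq2 1.42.0 and limma 3.58.1, other filters and scalings, a replicate block, and leaving out each library. Permutation tests used Python 3.11.15 with scipy 1.17.1, and figures matplotlib 3.10.9. Both kinds of test were checked on simulated data, with changes planted only in well-counted genes and, for the permutation test, on fully separated values. Neither check covers counts as low as those of the copies other than PCP011683. Genes named are the 5 copies, the other ethylene genes of the study, and for each copy the 2 most correlated genes. The copies and lists were chosen with earlier results of these data known. None of the gene identifiers matched the reference table, so no sequences, positions or lengths are given, and further pathway genes were not analysed here. The replicates of a stage differed by more than sampling noise and were kept apart in the tests. Ratios and shares of pooled counts sum the libraries of a stage, and their intervals leave out the spread between replicates.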

Additional observations from a re-analysis of the deposited data

How the results depend on the processing

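Of 34 results of a copy in a comparison, 19 were called, of which 14 kept the call under every alternative run, 5 lost it under at least 1, and 0 reversed. PCP011500 was taken from the fit without the filter throughout, so the alternatives that change only the filter repeat its main fit and had to agree. For PCP013122, PCP009685 and PCP022491 the filter of 5 CPM, which removes them, is not among the alternatives counted. Of the 15 not called, 3 were called under at least 1 alternative. The count of copies called higher from H1 to H2 was 1, and it was 0 without the filter, with limma-voom, with the replicate block and with only the 6 libraries of the comparison, and 0 to 1 when 1 library was left out. From H2 to H3 leaving out 1 library gave 0 to 1. With a filter of 5 CPM PCP011683 is the only copy left to test, and the count was 0 for H1 to H2 and H1 to H3, and 1 for H3 to H4, H2 to H4, H1 to H4 and H4 against the earlier stages. Among values not called, leaving out 1 library changed the sign of the log2 fold change of PCP011683, which ranged from -0.0031 (without H2 replicate 3) to 0.28 for H2 to H3 and from -0.26 to 0.017 (without H3 replicate 1) for H1 to H3, and of PCP022491 for H3 to H4, which ranged from -0.21 to 0.15 (without H3 replicate 2; 0.13 without H4 replicate 1). The ratio of PCP011683 to the other ACO copies in H4 was 1.74 above the earlier stages at a pseudocount of 0.25 CPM (p = 0.0909, exact permutation), and that of PCP009685 to PCP022491 was 0.73 at 0.5 CPM and 0.67 at 0.25 CPM, none of which passed. The cause was not tested.

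Whether the replicate numbers pair the libraries was not settled. Of 18 same-numbered pairs, 4 had deviations correlated over 0.1 (range -0.04 to 0.24), but differently numbered pairs were not compared. The main tests took the libraries as unpaired. With the replicate block 2 copies were called higher from H1 to H3 in place of 3, since PCP022491 was lost (adjusted p = 0.071), and PCP009685 was lost from H1 to H2 (0.076). With total-count scaling 1621 genes were called higher and 3432 lower from H3 to H4, in place of 2540 and 2201, and the calls of the copies were the same. Depth limits the ACS copies and PCP022491 most, since at H1 and H2 they had at most 10 counts a library. With 3 libraries a stage, the edgeR p-values rest on a spread between replicates that was estimated over all stages and drew on other genes.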
